A study of Mus musculus with 8 samples.

Results

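Nanos2, Nanos3, Pum2, Dnd1, Dazl, Lin28a and Lin28b encode RNA-binding proteins of the germline, and their RNA was measured by RNA-seq in 8 germline stem (GS) cell lines. The genes were found by symbol in the deposited table of FPKM values (fragments per kilobase of exon, scaled to the size of the library). All 7 were listed among 31010 genes, and all 7 passed the filter of a mean of at least 1 FPKM, which left 12000 genes to be tested. GS cells are the culture form of mouse spermatogonia, hold stem cells that can recolonize a testis, and self-renew with GDNF and FGF2. The study also used MHY1485 to drive the self-renewal of its donor B6 GS cells in culture. Whether the lines measured here received it was not stated. The lines were derived from CD9-sorted spermatogonia of mature testes of mice on the B6 background. The ICSI group held 4 lines from F1 mice, that is, mice of the first generation obtained by intracytoplasmic sperm injection (ICSI), a technique that places a single sperm directly into an oocyte. The control group held 4 lines from F1 mice of natural matings. The study calls the sperm used for the ICSI mice wild-type and took it from testes of green mice, which express Egfp ubiquitously. Whether the lines of either group carry Egfp was not stated. The comparison between them asked whether gene expression differed in the germline of ICSI offspring.

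The labels do not tie the lines to mice or litters. Their numbers recur as numbers of single F1 mice in the study's methylation assays of tail DNA, so that each line appears to come from a mouse of its own, whereas litters were not stated. Here n counts lines, and p-values measure the spread between lines. The sample titles came in 2 styles. Titles with hyphens (naming set 1) belonged to control lines 29 and 37 and ICSI lines 11 and 17. Titles without hyphens (naming set 2) belonged to control lines 44 and 45 and ICSI lines 20 and 21. The versions of the processing tools in the labels also differed with the set, and what else distinguished the sets was not stated, so the set was compared as a possible technical batch. The reads recovered from the FPKM steps numbered 24245285 to 26177385 per line in set 1 and 31842221 to 43595824 in set 2. In the lists of markers, all 12 genes of undifferentiated spermatogonia were above 0 in every line, and they summed to 443 to 948 FPKM. The 9 markers of differentiation and meiosis summed to 288 to 385 FPKM. Of these, Sohlh1, Sycp3 and Sycp1 averaged 120, 103 and 64.2 FPKM, whereas Prm1 was listed at 0 in every line. The 7 Sertoli cell markers summed to 5.03 to 8.98 FPKM, with Sox9 at up to 5.46 FPKM, Wt1 at up to 3.31 and Rhox5 at up to 2.67, whereas Amh was at most 0.0521 FPKM and Fshr at most 0.0123. The 6 Leydig cell markers summed to 0.669 to 1.89 FPKM, with Star at up to 1.77 FPKM, whereas Insl3 was at most 0.0610 FPKM and Cyp17a1 was listed at 0 in every line. Markers of fibroblasts, the feeder cells of such cultures, were present, and their summed FPKM over 15 genes was lowest in control line 45 (172) and highest in control line 29 (704). For GS cells the study's methods describe a step on gelatin that takes out feeder fibroblasts ahead of collection, in the passage on RT-PCR, and for the RNA-seq libraries it was not stated. In such bulk samples, fewer cells of a type and less RNA per cell cannot be told apart.

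NANOS proteins are zinc finger proteins that form complexes with Pumilio proteins on the 3′ untranslated regions (UTRs) of target mRNAs and recruit the CCR4-NOT deadenylase, which shortens the poly(A) tail. NANOS2 is known for holding spermatogonial stem cells in the undifferentiated state, NANOS3 and DND1 for the survival of primordial germ cells, and DAZL for translation of germ cell mRNAs. LIN28A and LIN28B bind the precursors of let-7 miRNAs and block their maturation, for which LIN28A recruits the uridylyltransferases TUT4 and TUT7, and mature let-7 in turn represses both Lin28 mRNAs. LIN28A marks undifferentiated spermatogonia.

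The RNA elements known from these relations can be searched for in the reference sequences. Mature let-7 miRNAs share the seed, bases 2 to 8, which pairs with target sites. The RefSeq table (GRCm38.p6) held 11 mature let-7 and miR-98 entries with the same seed, which were 9 different sequences. The following examples show the seed in capitals. Mature miRNAs were not measured in these libraries.
mmu-let-7a-5p: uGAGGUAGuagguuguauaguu
mmu-let-7g-5p: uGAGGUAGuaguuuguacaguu
mmu-miR-98-5p: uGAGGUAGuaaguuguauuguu

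The LIN28 zinc knuckles are known to bind GGAG in the terminal loop of let-7 precursors. The letters GGAG occurred on the transcribed strand of 9 of 12 let-7 and miR-98 hairpins (75%), and in 43.5% of 276 other hairpins of 83 to 108 bases. A hairpin with the motif (let-7g, chr9:106178840-106178927, plus strand) and a hairpin without it (let-7c-2, chr15:85706603-85706697, plus strand) are shown with GGAG in capitals.
let-7g hairpin: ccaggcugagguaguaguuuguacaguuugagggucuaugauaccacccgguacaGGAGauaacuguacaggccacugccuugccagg
let-7c-2 hairpin: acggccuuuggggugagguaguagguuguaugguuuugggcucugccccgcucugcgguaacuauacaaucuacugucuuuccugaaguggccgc

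The 3′ UTRs of both Lin28 genes held matches to this seed. The letters CTACCTC were searched on the transcript strand in 1 coding transcript per gene, and 9.65% of the 11445 tested genes with a 3′ UTR held at least 1 match. The 3′ UTR of Lin28a (2775 bases) held 2 matches and that of Lin28b (4445 bases) held 4, while those of Nanos2, Nanos3, Pum2, Dnd1 and Dazl held 0. Long 3′ UTRs hold more matches: of 1336 tested genes with a 3′ UTR of 0.8 to 1.2 times the length of that of Lin28a, 15.2% held at least 1 match and 2.40% at least 2. Of 724 genes with a length in the same range around that of Lin28b, 25.8% held at least 1 match and 3, Lin28b included, held 4 or more. The matches in the Lin28 genes are of letters only, and binding of let-7 to them was not tested. All 6 are shown with the seed match in capitals and mm10 coordinates on the minus strand.
Lin28a, chr4:134005182-134005204: ctgttgaaCTACCTCatttttgc
Lin28a, chr4:134004544-134004566: ccacaaacCTACCTCactgtgtt
Lin28b, chr10:45381015-45381037: cgggaagtCTACCTCatgcaagc
Lin28b, chr10:45378641-45378663: gttagtaaCTACCTCtgagtttg
Lin28b, chr10:45378469-45378491: gcacatggCTACCTCccagctac
Lin28b, chr10:45377053-45377075: ggcaccgaCTACCTCttcaatca

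The Pumilio motif, TGTANATA, was found by the same search in the 3′ UTRs of Pum2, which held 2 matches, Lin28a, which held 1, and Lin28b, which held 2. At least 1 match occurred in 25.1% of the 3′ UTRs of tested genes. Among 1303 tested genes with a 3′ UTR of 0.8 to 1.2 times the length of that of Pum2 (2861 bases), 44.2% held at least 1 match and 13.7% at least 2. The matches in Pum2, the gene of a protein that binds this motif, are on the plus strand and are shown with the motif in capitals.
Pum2, chr12:8750157-8750180: tatagagaTGTATATAgaattata
Pum2, chr12:8750410-8750433: tacagaatTGTATATActtataat

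Dazl was by far the most abundant of these genes, with a mean of 337 FPKM over the 8 lines, which lay at the 99.7th percentile of all tested genes. Lin28a (62.8 FPKM) and Dnd1 (48.3) followed, then Nanos3 (31.5), Pum2 (29.8), Nanos2 (9.48) and Lin28b (5.83), the last at the 38.4th percentile. FPKM values are per length of exon, taken over all annotated exons of a gene, so that the order of genes depends on this length. It was 9065 bases for Lin28b and 2412 for Dnd1, whose chosen coding transcripts have 5402 and 1451 bases. For Nanos2 both were 1563 bases. The order by the length of the transcripts in use was not tested. Dazl exceeded Lin28a, Lin28a exceeded Dnd1, Dnd1 exceeded Nanos3, and Pum2 exceeded Nanos2 in 8 of 8 lines. The order of 2 neighbouring pairs was not fixed, since Nanos3 exceeded Pum2 in 5 of 8 lines and Nanos2 exceeded Lin28b in 6 of 8.

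**Figure D1:**
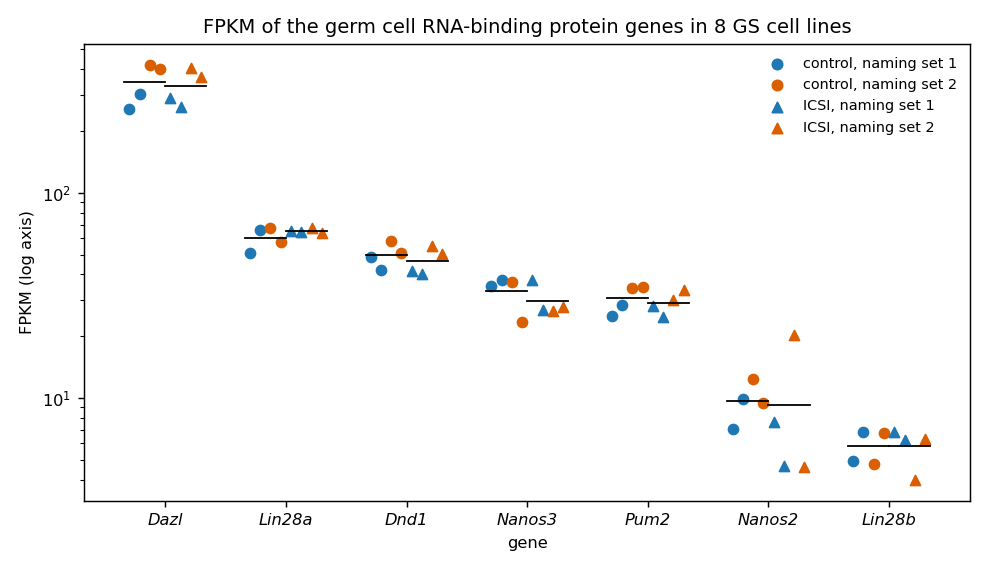
FPKM of each gene (log axis) in the 8 GS cell lines; circles are control lines, triangles are ICSI lines, blue is naming set 1, orange is naming set 2, and black bars are the means of the 4 control and the 4 ICSI lines. The control and ICSI lines overlapped for every gene, whereas Dazl, Dnd1 and Pum2 were higher in all 4 lines of set 2 than in all 4 lines of set 1.

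No difference between ICSI and control lines passed the test in any of the 7 genes. None of the 12000 genes tested over the table passed an adjusted p of 0.05 (0% called, limma with Benjamini-Hochberg adjustment). An unadjusted limma p below 0.05 was found for 55 genes, none of them among the 7. These are fewer than the share of 0.05 that chance would give if no gene differed. Neither this fit nor the permutation test below took the naming set into account. The log2 difference, ICSI minus control, was below 0 for 6 of the genes and above 0 for Lin28a, and its median was -0.063, beside a median of -0.013 over all genes tested. The lowest unadjusted limma p of the 7 was 0.315, and the exact permutation p-values ranged from 0.371 to 1, where 70 assignments of the lines allow 0.0286 at the smallest. ICSI and control lines overlapped for all 7 genes, as for most of the table, in which 0.442% of the genes did not overlap.

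The intervals of these differences were narrow for some genes and wide for others. With the 95% interval of the limma fit without the naming set, on the log2(FPKM + 1) scale, the ICSI to control fold lay between 0.913 and 1.29 for Lin28a, between 0.755 and 1.16 for Dnd1, and between 0.772 and 1.19 for Pum2. It lay between 0.701 and 1.32 for Dazl, between 0.685 and 1.18 for Nanos3 and between 0.757 and 1.32 for Lin28b. For Nanos2 it lay between 0.453 and 1.52, so that a fall or a rise of that size could not have been told from no change in these lines. This fit leaves the difference between the naming sets in the spread. With the set as a covariate, the interval narrowed to 0.820 to 1.13 for Dazl, to 0.836 to 1.10 for Pum2 and to 0.818 to 1.07 for Dnd1, the genes that differed between the sets. It was 0.924 to 1.27 for Lin28a, 0.708 to 1.15 for Nanos3, 0.766 to 1.30 for Lin28b and 0.464 to 1.48 for Nanos2, and 0 of the 7 genes were called in that fit either. The difference of the ICSI effect between the naming sets was called for 0 of the 7 genes and for 0% of all genes tested, and 147 of the 12000 genes had an unadjusted p below 0.05 in that test.

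**Figure D2:**
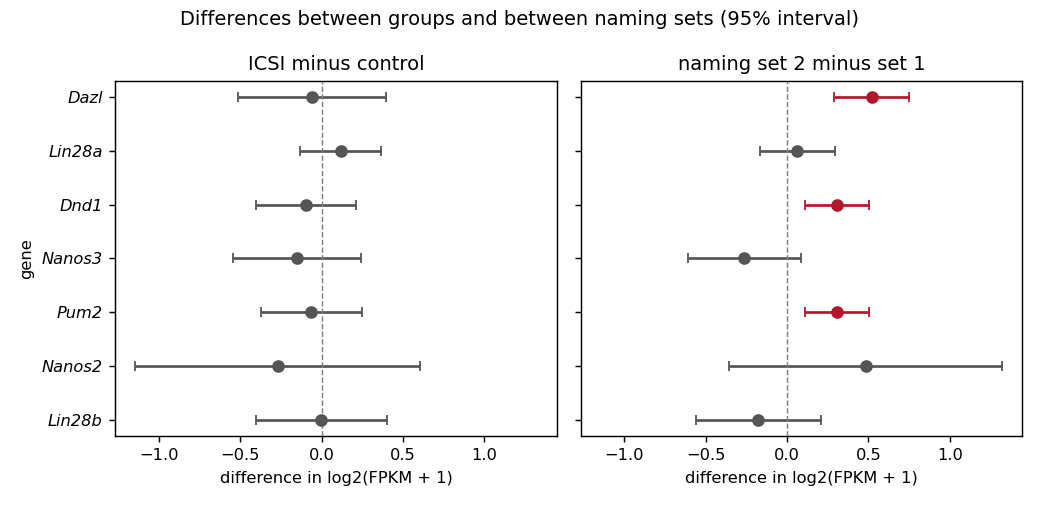
Differences in log2(FPKM + 1) with their 95% intervals from limma, for ICSI minus control (left, fit without the naming set) and naming set 2 minus set 1 (right); red marks an adjusted p below 0.05. All 7 intervals on the left include 0, and on the right those of Dazl, Dnd1 and Pum2 lie above 0.

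Between the naming sets, by contrast, 3 of the 7 genes passed the test (limma with the group as covariate), all higher in set 2. This share is to be read against the whole table, where 16.0% of all tested genes were called, that is, 10.2% of the tested genes were higher and 5.76% lower in set 2. Dazl was at 277 ± 21.9 FPKM in set 1 and 397 ± 23.1 in set 2 (SD, n = 4 lines each), a log2 difference of 0.52 ± 0.10 (SE) with a limma adjusted p of 0.0173. Pum2 was at 26.6 ± 1.95 and 33.1 ± 2.20 FPKM, a log2 difference of 0.31 ± 0.086 with a limma adjusted p of 0.0444. Dnd1 was at 43.2 ± 3.82 and 53.5 ± 3.49 FPKM, a log2 difference of 0.31 ± 0.086 with a limma adjusted p of 0.0444. The sets did not overlap for these 3 genes, as for 26.8% of all genes tested. The exact permutation p of each was 0.0286, the smallest these lines allow. Lin28a, Lin28b, Nanos2 and Nanos3 did not pass the test, with limma adjusted p-values from 0.252 to 0.683.

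Library depth and the markers of undifferentiated spermatogonia moved with the naming set as well, and their part in the differences of Dazl, Pum2 and Dnd1 was not tested. The 12 undifferentiated markers summed to 443 to 569 FPKM in set 1 and to 686 to 948 FPKM in set 2. Of these markers 8 were called, all higher in set 2. Among all tested genes 10.2% were called higher and 5.76% lower in set 2, the shares to be read beside each marker list. The 15 fibroblast markers overlapped between the sets, with sums of 219 to 704 FPKM and 172 to 628 FPKM, and 0 of the 14 that were tested were called. Of 9 markers of differentiation and meiosis 7 were tested, and Sycp3 and Sycp1 were called higher and Kit lower in set 2. Of 7 Sertoli cell markers 3 were tested, and Sox9 was called higher and Wt1 lower in set 2. Of 6 Leydig cell markers only Star was tested, and it was not called. No gene of any marker list was called between ICSI and control. The calls of Dazl, Pum2 and Dnd1 depended on the scaling. After quantile normalization their log2 differences fell to 0.29, 0.20 and 0.19, and their limma adjusted p-values were 0.0712, 0.144 and 0.121. On the recovered reads (limma-voom), that of Dazl was 0.0143, that of Pum2 0.0852 and that of Dnd1 0.109.

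Single lines also decided these calls. That of Dazl was lost without control line 37 (limma adjusted p = 0.0538), control line 44 (0.0510), ICSI line 11 (0.0616) or ICSI line 17 (0.0583), while its log2 difference stayed between 0.47 and 0.56 whichever line was left out. The call of Pum2 was kept only without ICSI line 20 (0.0431) and that of Dnd1 only without control line 29 (0.0430). Without any other single line, the limma adjusted p was 0.0709 to 0.129 for Pum2 and 0.0528 to 0.130 for Dnd1. Without control lines 29 and 44, which had the most fibroblast marker RNA, all 3 calls were lost, at log2 differences of 0.46 for Dazl, 0.27 for Pum2 and 0.33 for Dnd1. Without these lines 401 of all tested genes were called, beside 1917 with every line and 210 without ICSI line 11 alone. The losses here and in the gene lists below are to be read beside these counts. The part of the fibroblasts in the losses was not tested. All 3 genes were higher in set 2 in every alternative.

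Dazl, a translational regulator with an RNA recognition motif, lies on the minus strand at chr17:50279395-50293636 (mm10). It was measured at 257, 302, 420 and 399 FPKM in control lines 29, 37, 44 and 45, and at 289, 260, 404 and 365 FPKM in ICSI lines 11, 17, 20 and 21. The lowest and the highest values were both from control lines, and each group had a low pair of lines and a high pair. With 25989 to 67285 reads per line it was also the best counted of these genes. The control and ICSI means, 345 ± 77.9 and 330 ± 66.4 FPKM (SD, n = 4), differed by less than either SD. Within set 1 the log2 difference, ICSI minus control, was -0.023, and within set 2 it was -0.092, where each mean is of 2 lines.

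Boll, the relative of Dazl in the DAZ family, averaged 9.77 FPKM and ranged from 8.04 to 10.8 FPKM. Its log2 difference between the naming sets was 0.14 (limma adjusted p = 0.306), so that it did not pass the test that Dazl passed. Whether the differences of these genes themselves differed was not tested.

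Nanos2, a gene of 1 exon at chr7:18987400-18988962 on the plus strand, was the most variable of the group. It was measured at 7.08, 9.90, 12.3 and 9.45 FPKM in control lines 29, 37, 44 and 45, and at 7.66, 4.65, 20.2 and 4.60 FPKM in ICSI lines 11, 17, 20 and 21. The ICSI lines held both extremes, the highest value in line 20 and the lowest in lines 17 and 21, and the controls lay between them. The highest value was 4.39 times the lowest, and the SD of log2(FPKM + 1) over the 8 lines was 0.64, at the 96.6th percentile of all tested genes. The SD was 0.90 among the ICSI lines and 0.30 among the control lines, a difference that was not tested. It was counted with 205 to 977 reads, which gives a counting error of at most 6.98% beside a variation of 53.3% between lines. The log2 difference between ICSI and control, -0.27 over all lines, rested on single lines: it was -0.70 without ICSI line 20, -0.056 without ICSI line 21, -0.060 without ICSI line 17 and -0.16 without control line 44. An antisense gene, Gm45058, overlaps Nanos2 by 766 bases and was at 0 to 0.419 FPKM.

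Nanos3, at chr8:84173731-84185217 on the minus strand, was measured at 35.2, 37.6, 36.9 and 23.4 FPKM in control lines 29, 37, 44 and 45. It was measured at 37.7, 26.8, 26.5 and 27.6 FPKM in ICSI lines 11, 17, 20 and 21. Levels thus lay between 23.4 and 27.6 FPKM in 4 lines and between 35.2 and 37.7 FPKM in the other 4, with 3 of the controls and 1 ICSI line in the higher range. The control mean of 33.3 ± 6.68 FPKM and the ICSI mean of 29.7 ± 5.39 FPKM (SD, n = 4) differed by less than either SD. ICSI line 11 stood apart from the other 3 ICSI lines. Control line 45 was the lowest line, and without it the log2 difference between ICSI and control was -0.31 in place of -0.15. Without control lines 29 and 44 it was -0.015.

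Nanos2 was expressed below Nanos3 in every line. The ratio of Nanos2 to Nanos3 was 0.201, 0.263, 0.334 and 0.404 in control lines 29, 37, 44 and 45, and 0.203, 0.173, 0.761 and 0.167 in ICSI lines 11, 17, 20 and 21. In ICSI line 20 the ratio was thus well above that of all other lines, because Nanos2 was at its highest and Nanos3 was low. The differences of the log2 ratio did not pass the test between ICSI and control (-0.17, exact permutation p = 0.8) or between the naming sets (0.80, exact permutation p = 0.143), and both adjusted p-values over the 6 comparisons of ratios were at least 0.429. The difference between the sets was 0.44 without ICSI line 20 and 1.17 without ICSI line 21. Nanos1, the remaining paralog, was at 6.35 to 12.6 FPKM, close to Nanos2. It was higher in set 2, at 11.5 ± 0.992 against 7.84 ± 1.24 FPKM (SD, n = 4; limma adjusted p = 0.0316), and this call held in 8 of 17 alternatives.

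**Figure D3:**
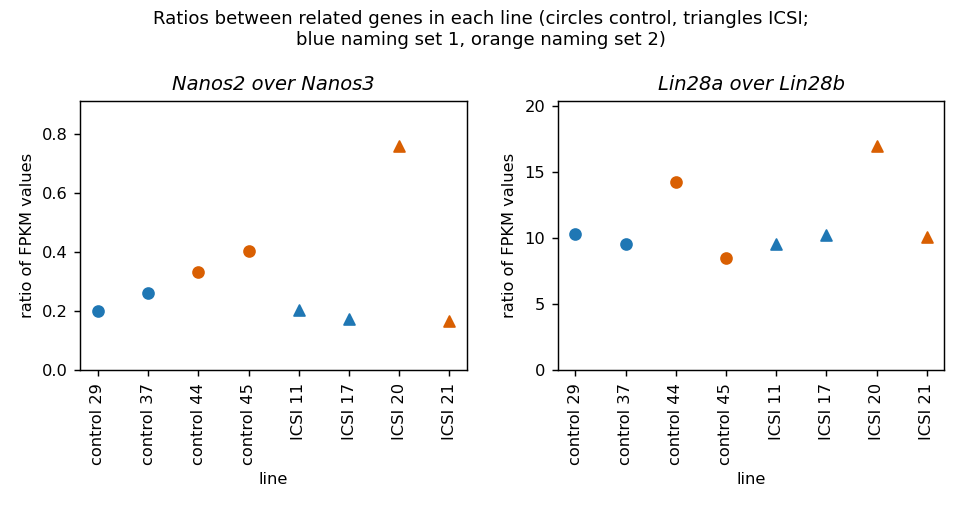
Ratio of the FPKM values of 2 related genes in each line, for Nanos2 over Nanos3 and Lin28a over Lin28b; circles are control lines, triangles are ICSI lines, blue is naming set 1 and orange is naming set 2. ICSI line 20 has the highest ratio in both panels, 0.761 and 17.0.

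Pum2, a sequence-specific repressor of mRNAs at chr12:8674134-8752581 on the plus strand, was measured at 25.0, 28.3, 34.2 and 34.7 FPKM in control lines 29, 37, 44 and 45. It was measured at 28.2, 24.7, 29.9 and 33.7 FPKM in ICSI lines 11, 17, 20 and 21. Every line of set 2 was above every line of set 1, while 26.8% of all tested genes did not overlap between the sets. Within set 1 the log2 difference, ICSI minus control, was -0.011, and within set 2 it was -0.12. Each of these means is of 2 lines, and the differences were not tested. Pum3, a nucleolar relative, was higher in set 2, at 18.2 ± 2.89 against 12.6 ± 0.792 FPKM (SD, n = 4; limma adjusted p = 0.0302), and this call held in 9 of 17 alternatives.

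Lin28a, at chr4:134003330-134018841 on the minus strand, was the steadiest of the 7 genes. It was measured at 50.8, 65.8, 67.7 and 57.4 FPKM in control lines 29, 37, 44 and 45, and at 65.2, 64.2, 67.7 and 63.8 FPKM in ICSI lines 11, 17, 20 and 21. The ICSI lines lay close together, and the 2 lowest values were from controls. The SD of log2(FPKM + 1) was 0.19 in control and 0.038 in ICSI lines, and the means were 60.4 ± 7.84 and 65.2 ± 1.76 FPKM (SD, n = 4).

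Lin28b, at chr10:45376620-45486395 on the minus strand, was measured at 4.92, 6.86, 4.75 and 6.72 FPKM in control lines 29, 37, 44 and 45. It was measured at 6.81, 6.25, 3.98 and 6.31 FPKM in ICSI lines 11, 17, 20 and 21. Control lines 29 and 44 and ICSI line 20 were low, below 5 FPKM, and the other 5 lines lay between 6.25 and 6.86 FPKM, so that the split crossed both the groups and the sets. The same 3 lines had the most fibroblast marker RNA, with sums of 704, 628 and 424 FPKM, beside 172 to 315 FPKM in the other 5. The part of the fibroblasts in the level of Lin28b was not tested. The group means, 5.81 ± 1.13 and 5.84 ± 1.26 FPKM (SD, n = 4), were nearly the same, and Lin28b was counted with 1118 to 2691 reads per line.

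**Figure D4:**
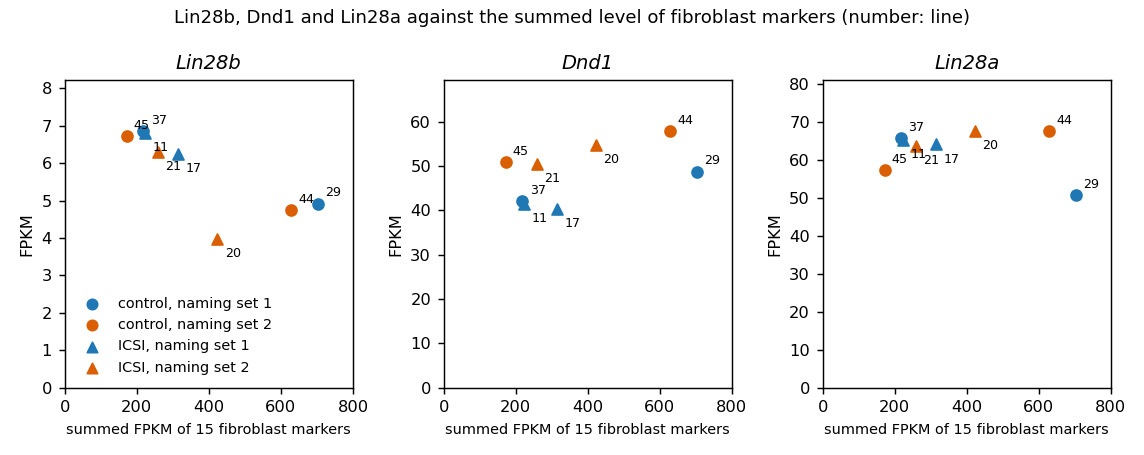
FPKM of Lin28b, Dnd1 and Lin28a against the summed FPKM of 15 fibroblast markers in the same line; circles are control lines, triangles are ICSI lines, blue is naming set 1, orange is naming set 2, and numbers name the lines. The 3 lines with fibroblast marker sums of 424 to 704 FPKM (control 29, control 44 and ICSI 20) have the lowest Lin28b values, 3.98 to 4.92 FPKM, and the highest Dnd1 values of their naming set.

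Lin28a exceeded Lin28b by 8.53 to 17.0 times in FPKM, with a median of 10.2. The size of this ratio depends on the exon lengths used, 3996 bases for Lin28a and 9065 for Lin28b. The chosen coding transcripts have 3505 and 5402 bases. The ratio was 10.3, 9.60, 14.2 and 8.53 in control lines 29, 37, 44 and 45, and 9.59, 10.3, 17.0 and 10.1 in ICSI lines 11, 17, 20 and 21. Lines 44 and 20 stood above the rest. Control line 29 did not, since Lin28a was low there too. The differences of the log2 ratio did not pass the test between ICSI and control (0.12, exact permutation p = 0.629) or between the naming sets (0.27, exact permutation p = 0.371), and both adjusted p-values over the 6 comparisons were at least 0.743. The difference between the sets was 0.11 without ICSI line 20 and 0.44 without control line 45.

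Dnd1 encodes an RNA-binding protein that acts with NANOS2 on target mRNAs. The gene lies on the minus strand at chr18:36763671-36766214 and overlaps Wdr55 on the opposite strand by 140 bases. Wdr55 was itself at 40.8 to 52.8 FPKM, and whether the counting used strand is uncertain, so that some reads of either gene could belong to the other. Dnd1 was measured at 48.8, 42.2, 57.9 and 50.9 FPKM in control lines 29, 37, 44 and 45, and at 41.4, 40.3, 54.8 and 50.5 FPKM in ICSI lines 11, 17, 20 and 21. Within set 1 control line 29 was the highest and within set 2 control line 44 and ICSI line 20 were, which are the lines low in Lin28b. Once the means of group and set were removed, Pearson's r between Dnd1 and Lin28b over the 8 lines was -0.91, and it was -0.70 on the values as they stand. With these means removed, it was the strongest r of all pairs among the genes named at the outset. Dazl with Lin28a (0.84) and Pum2 with Lin28b (0.79) came next. The strongest r of many pairs over 8 lines is high in any case. The r of Dnd1 and Lin28b is thus a description over lines that share their libraries, scaling and feeder content.

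Of the machinery through which NANOS proteins act, the CCR4-NOT deadenylase and its adaptors were listed with all 17 genes, of which 15 were tested. None was called between ICSI and control, with a median log2 difference of -0.040. Of the tested genes, Cnot9 (59.6 FPKM) and Btg2 (55.2) had the highest mean levels and Cnot4 (7.41) and Tob2 (9.16) the lowest, while Btg3 (0.907) and Btg4 (0.0923) fell under the filter. Between the naming sets 4 of the 15 genes were called, all higher in set 2, as were 10.2% of all tested genes, and the median log2 difference was 0.18, beside 0.028 over all tested genes. These were the antiproliferative adaptors Btg1 (11.8 to 17.1 FPKM, limma adjusted p = 0.0208) and Tob1 (7.81 to 18.4 FPKM, 0.0316), the deadenylase Cnot6l (8.16 to 13.1 FPKM, 0.0319) and the core subunit Cnot9 (53.7 to 65.5 FPKM, 0.0423), each given as the mean of set 1 and that of set 2. After quantile normalization 3 of the 15 were called, without the filter 1 was, and without control lines 29 and 44 0 were. Cnot1, the scaffold (chosen after its values were seen), was at 32.8 to 43.0 FPKM with a log2 difference of 0.031 between the sets.

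Of 12 genes of mRNA decapping and P-bodies, all were tested and 0 were called between ICSI and control (median log2 difference -0.044). The poly(A)-binding protein gene Pabpc1 had the highest mean, 214 FPKM, followed by Lsm14b at 52.7 FPKM. Dcp1b (2.66) and Xrn1 (6.75) were the lowest. Pabpc1 was higher in set 2, at 260 against 168 FPKM (limma adjusted p = 0.0142), and the decapping scaffold gene Edc4 was lower, at 31.5 against 44.2 FPKM (0.0208). The other 10 did not pass, while of all tested genes 10.2% were higher and 5.76% lower in set 2. The median log2 difference of the list was 0.0078, and without control lines 29 and 44 0 of the 12 were called.

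Among the genes of let-7 processing, 13 of 15 listed symbols were found in the table and 12 were tested. The missing symbols, Zcchc11 and Zcchc6, are older names of Tut4 and Tut7, which were found. None was called between ICSI and control (median log2 difference -0.039). Drosha (64.7 FPKM), the nuclear nuclease, and Trim71 (59.9), itself a known let-7 target, had the highest mean levels, and Ago2 (1.68) and the nuclease gene Dis3l2 (1.81) the lowest of the tested genes, while Ago4 (0.753) fell under the filter. The uridylyltransferase genes Tut4 and Tut7, which were chosen after their values were seen, averaged 15.9 and 3.17 FPKM. Between the sets, Ago3 (8.03 to 4.05 FPKM, limma adjusted p = 0.0235), Tarbp2 (12.4 to 8.05 FPKM, 0.0272) and Ago1 (13.6 to 8.54 FPKM, 0.0478) were lower in set 2, where the values are the means of set 1 and set 2. These are 3 of 12, where 5.76% of all tested genes were lower, and the median log2 difference was -0.086. After rescaling to TPM 2 genes of this list were called and after quantile normalization 4 were, all lower, whereas 0 were called without the filter and 0 without control lines 29 and 44.

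The list of let-7 and LIN28 targets had 12 genes, all tested, and 0 were called between ICSI and control (median log2 difference -0.027). Ccnd2 (98.9 FPKM) and Hmga1 (70.8) were the highest on average and Myc (2.10) and Hmga2 (2.46) the lowest. Between the sets, Ccnd2, a D-type cyclin (72.7 to 125 FPKM, limma adjusted p = 0.0272) and Arid3a (9.70 to 14.0 FPKM, 0.0383) were higher in set 2, and the median log2 difference of the list was 0.31. No gene of the list was called without the filter or without control lines 29 and 44. After quantile normalization Arid3a was no longer called (limma adjusted p = 0.0520), and over 17 alternatives its adjusted p ran from 0.0246 to 0.121, with the call kept in 5. Among the chosen transcripts of this list, the seed match occurred 4 times in the 3′ UTR of Hmga2 and 4 times in that of Igf2bp1, and 0 times in that of Ccnd2.

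Of 5 genes known as targets of NANOS2, including Dazl, 0 were called between ICSI and control (median log2 difference -0.029). Dazl and Taf7l (236 FPKM) had the highest mean levels, and Stra8 (20.98) and Sohlh2 (86.4) the lowest. Stra8, which marks the response to retinoic acid, ranged from 6.55 to 38.7 FPKM. Sycp3, a component of the synaptonemal complex, was higher in set 2, at 126 against 80.6 FPKM (limma adjusted p = 0.0173), as was Dazl, and the other 3 did not pass. Of all tested genes, 10.2% were called higher in set 2. The median log2 difference of the list between the sets was 0.29, and without control lines 29 and 44 0 of the 5 were called.

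Of 20 other germ cell RNA-binding protein genes, 19 were tested and 0 were called between ICSI and control (median log2 difference 0.0068). Ddx4, the germ cell helicase gene, had the highest mean at 224 FPKM, then Fxr1 at 40.0 FPKM, and Tia1 (1.74) and Ybx2 (1.87) were the lowest of the tested genes. Zar1 (0.0298) fell under the filter. Between the sets 7 of the 19 were higher and 1 was lower in set 2, beside 10.2% and 5.76% of all tested genes, and the median log2 difference was 0.17. The higher ones with the smallest p were Khdrbs1 (22.4 to 34.1 FPKM, limma adjusted p = 0.00913), Fmr1 (18.2 to 24.5 FPKM, 0.0201), Rbm46 (24.2 to 32.7 FPKM, 0.0243) and Elavl2 (5.26 to 9.26 FPKM, 0.0319), and the lower one was Tia1 (2.48 to 1.01 FPKM, 0.0316). Khdrbs1, which encodes the splicing regulator SAM68, was called in all 17 alternatives, whereas after quantile normalization 3 genes of the list were called higher in place of 7, without the filter 3 and without control lines 29 and 44 only 1.

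By the same measure, the genes most like each of the 7 across the 8 lines were found by Pearson's r of log2(FPKM + 1) over all tested genes. The best r among 12000 genes over 8 points is high in any case, so these are descriptions. For Dazl they were Csnk1g3 (r = 0.998, and 0.991 once group and set means were removed), Irs2 (0.993 and 0.983) and Khdrbs1 (0.993 and 0.935). For Pum2 they were Sycp1 (0.993 and 0.973), Esco1 (0.990 and 0.967) and Ythdc1 (0.989 and 0.959), and for Dnd1 Rnf19a (0.989 and 0.964), Atp6v1e1 (0.988 and 0.963) and P4hb (0.982 and 0.971).

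For Lin28b the most alike were Nf1 (0.989 and 0.996), Prr12 (0.985 and 0.993) and Sgsm2 (0.981 and 0.985). For Nanos2 they were Lin37 (0.980 and 0.993), Macroh2a2 (0.976 and 0.975) and Slirp (0.973 and 0.969). Those of Lin28a were Cotl1 (0.953 and 0.961), Gna12 (0.951 and 0.961) and Pcsk6 (0.948 and 0.937), and those of Nanos3 were Bcl3 (0.929 and 0.888), Mtmr14 (0.902 and 0.915) and Rnf19b (0.900 and 0.871). Among the 7 genes themselves, Dazl was closest to Pum2 (0.91, and 0.46 once group and set means were removed) and to Dnd1 (0.82 and -0.18), so that most of the likeness of these pairs lay between the sets.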

How the data were processed

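RNA-seq was analysed in 8 GS cell lines, 4 ICSI and 4 control. Per the labels, the submitters' processing notes name cutadapt, STAR, HTSeq and DESeq2 in versions that differ with the naming set (STAR 2.7.9a and HTSeq 0.13.5 in set 1, STAR 2.6.0c and HTSeq 0.11.2 in set 2), and mm10. The authors deposited FPKM values, and also their own fold changes and adjusted p-values, which were not used. Different library kits are named by the labels and by the methods of the study, and strandedness is therefore uncertain.

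Dividing FPKM by the value of 1 read, with exon lengths from GENCODE (release M21, GRCm38), gave whole reads, to within 0.05 of a read, in every line for 98.2% of tested genes. The libraries held 24245285 to 43595824 recovered reads. A count of 0 allows up to 3 reads, which is 0.068 to 0.12 FPKM in a gene of 1 kb. Reads carry no molecular identifiers, so such limits cover counting error only.

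A mean of 1 FPKM or more over the 8 lines was required, and the 12000 genes that had it were tested with limma 3.58.1 in R 4.3.3 (lmFit, eBayes with trend) on log2(FPKM + 1). Tests were two-sided, p-values were adjusted by the Benjamini-Hochberg method, and genes were called at an adjusted p below 0.05. This pseudocount understates changes of low genes. ICSI was fitted without covariate, the naming set with the group as covariate, and the difference of the ICSI effect between sets as an interaction. The script was tested on simulated data, which held no difference between the naming sets. The spread that this difference adds to the ICSI fit was thus not covered by that test. Single genes and log2 ratios between related genes were tested with exact two-sided permutation tests over 70 assignments. The p-values of ratios were adjusted over the 6 comparisons made, of which 4 are given, and some planned results are not reported here. Alternatives were pseudocounts of 0.1 and 0.01, no filter, a mean of at least 5 FPKM, rescaling to TPM, quantile normalization, limma-voom on the recovered reads, the other covariate, and leaving out each line. Leaving out control lines 29 and 44 was added after seeing the data.

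Motifs were searched in 1 GENCODE transcript per gene (principal isoform, longest coding sequence). By rule, the text names all 7 genes with every value, the 3 genes most like each, and of every other list the 2 highest and 2 lowest genes and up to 4 called genes per direction. The members and lists were chosen with earlier results of these data known.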

Additional observations from a re-analysis of the deposited data

Results flagged for a closer look

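Lines that stood apart from the others of their group of 4 were screened for in 36 groups, namely the control lines, the ICSI lines and both naming sets for each of the 7 genes and the 2 ratios. Chance flags about 1 in 20 such groups, and 4 stood apart here. Nanos3 was at 37.7 FPKM in ICSI line 11, whereas the other 3 ICSI lines were at 26.5 to 27.6 FPKM. This is within the range of the control lines. Lin28a was at 50.8 FPKM in control line 29, whereas the other 3 lines of naming set 1 were at 64.2 to 65.8 FPKM. Control line 29 also had the highest summed fibroblast markers, 704 FPKM, whose part in this value was not tested.

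The log2 ratio of Nanos2 to Nanos3 was -0.39 in ICSI line 20 and -2.59 to -2.30 in the other 3 ICSI lines. The log2 ratio of Lin28a to Lin28b was 4.09 in the same line and 3.26 to 3.36 in the others. ICSI line 20 held the highest Nanos2 value, 20.2 FPKM, and the lowest Lin28b value, 3.98 FPKM, of all 8 lines. Its fibroblast markers summed to 424 FPKM, the highest among the ICSI lines, and their part in these ratios was not tested.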

How the results depend on the processing

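No paired analysis was possible because the lines of the groups share no numbers. Between ICSI and control, 0 genes were called in every alternative except without the filter on low values, where 1 gene was, and 0 of the 7 genes were called in any of them. The ICSI effect differed between sets for 0 genes in all 15 alternatives. Between the naming sets, the count of called genes was 1255 without the filter and 401 without control lines 29 and 44, and it ranged from 210 (without ICSI line 11) to 2691 (without ICSI line 21) when single lines were left out, beside 1917. It was 1044 without control line 29, 287 without control line 37, 675 without control line 44, 1061 without control line 45, 429 without ICSI line 17 and 1209 without ICSI line 20. The share of called genes higher in set 2 was 64.0% as reported, 59.7% after rescaling to TPM, 51.2% after quantile normalization and 47.5% on the recovered reads.

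Of the 7 genes, 3 were called between the sets as reported, 1 after rescaling to TPM, 1 on the recovered reads, and 0 without the filter, after quantile normalization and without control lines 29 and 44. With single lines left out, 0 to 2 were called. Small log2 differences, ICSI minus control, changed sign in some alternatives. With single lines left out, that of Dazl ranged from -0.19 (without control line 29) to 0.048 (without ICSI line 17), that of Pum2 from -0.15 (without control line 29) to 0.00996 (without ICSI line 17), and that of Lin28b from -0.077 (without control line 44) to 0.14 (without ICSI line 20). That of Lin28b was 0.016 after rescaling to TPM, 0.028 after quantile normalization and 0.00066 on the recovered reads, and that of Dnd1 was 0.00093 without control lines 29 and 44. The difference of Lin28a between the sets was -0.095 after quantile normalization, -0.010 on the recovered reads and -0.050 without control lines 29 and 44, and lay between -0.018 when control line 29 was left out and 0.13 when control line 37 was. With single lines left out, the differences of log2 ratios between ICSI and control ranged from -0.69 (without ICSI line 20) to 0.041 (without ICSI line 21) for Nanos2 to Nanos3, and from -0.070 (without ICSI line 20) to 0.27 (without control line 44) for Lin28a to Lin28b. None of these differences passed the test under the alternatives run, and the cause of the changes was not tested. Pseudocounts of 0.1 and 0.01 changed none of the calls of the 7 genes. For Nanos2, the gene with the fewest reads, the counting error was at most 6.98% beside a variation of 53.3% between lines. Its interval stayed wide with the set as a covariate. Library depth moved with the naming set, and its part in the differences between lines was not tested.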
